A study of Mus musculus with 27 samples.

Results

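Retinal cells captured from mice lacking Brn3b were compared with retinal cells captured from mice lacking Brn3a at postnatal day 3. The 4 libraries were chosen by their titles, 2 Brn3b KO and 2 Brn3a KO, out of 27 in the series. All were made from cells that carry alkaline phosphatase (AP) and were pulled from dissociated mouse retina (strain C57Bl/6) with magnetic beads bearing an antibody to AP. The Brn3b KO cells came from Brn3b AP/KO mice, which have an AP allele and a knockout allele of Brn3b, and the Brn3a KO cells from Brn3a AP/KO mice. The matching heterozygotes, Brn3b AP/WT (Brn3b HET) and Brn3a AP/WT (Brn3a HET), have 2 AP-positive libraries each at the same age and carry the same AP alleles beside a wild-type allele. Each of these 4 groups also has 1 library of the unbound cells, here called the supernatant. The labels do not say whether a library holds 1 animal or a pool, nor whether replicates came from separate litters. The p-values therefore measure the spread between libraries. That spread was estimated over all 12 AP-positive libraries of the series, which include Brn3b HET and Brn3b KO libraries of embryonic day 15.

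Brn3a (gene Pou4f1), Brn3b (Pou4f2) and Brn3c (Pou4f3) are POU-domain transcription factors that retinal ganglion cells, the output neurons of the retina, switch on as they leave the cell cycle. Brn3b is known to act early, in the survival and axon growth of a large share of ganglion cells, and Brn3a later, in dendrite shape and cell type. An AP allele marks the cells in which its own locus is active, so the Brn3b and Brn3a lines mark overlapping but not identical ganglion cell populations, and the KO comparison differs both in the lost factor and in the marking locus.

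The deposited values were estimated counts, 33297459 to 36769807 per KO library and 33051393 to 36498514 per HET library, given below as counts per 1000000 counts (CPM) after scaling between libraries. Differences are log2 values, Brn3b minus Brn3a, with the standard error (SE) from edgeR's quasi-likelihood test, and a gene is called when its p adjusted over all 16673 genes tested is under 0.05. Replicates correlated with r = 0.969 in Brn3b KO, 0.966 in Brn3a KO, 0.968 in Brn3b HET and 0.975 in Brn3a HET, across genes of the same library pair. The labels of Brn3a KO replicate 2 conflict, since its genotype field gives the Brn3b allele while its title gives Brn3a, and the source names of the Brn3b libraries name Brn3a. The levels of Pou4f1 and Pou4f2 went with the titles in the 4 KO libraries. Between the 2 heterozygous lines the CPM of Pou4f2 overlapped. Pou4f1 was lower in both Brn3b HET than in both Brn3a HET libraries, without passing the test.

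The targeted genes came first. Pou4f2 was at 21.0 and 18.3 CPM in Brn3b KO cells, against 392 and 262 CPM in Brn3a KO cells, a log2 difference of -4.06 ± 0.28 (SE, 16.6-fold lower, adjusted p = 0.000185). In the heterozygotes it was at 187 and 286 CPM in Brn3b HET cells and at 238 and 250 CPM in Brn3a HET cells (log2 difference -0.04, adjusted p = 0.922). Among these 8 libraries the 2 of Brn3b KO were the low ones, and 35.3% of all genes also had both Brn3b KO libraries below both Brn3a KO libraries. Pou4f1 was at 61.6 and 86.8 CPM in Brn3b KO cells, against 16.7 and 10.7 CPM in Brn3a KO cells (2.44 ± 0.50, 5.41-fold higher, adjusted p = 0.00575). The Brn3b HET libraries had 168 and 249 CPM of Pou4f1 and the Brn3a HET libraries 475 and 439 CPM, so the values of heterozygotes lay in the other order, without passing the test (-1.13, adjusted p = 0.152). The table places Pou4f2 (ENSMUSG00000031688) at chr8:78433010-78436645 and Pou4f1 (ENSMUSG00000048349) at chr14:104461676-104467999 of GRCm38, both on the minus strand, and which part of each gene the KO allele lacks is not given in the sources used here.

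Pou4f3, the third family member, was not targeted in either line. It was at 3.35 and 7.16 CPM in Brn3b KO cells, against 99.9 and 62.0 CPM in Brn3a KO cells (-3.94 ± 0.68, 15.4-fold lower, adjusted p = 0.00277). Brn3b HET cells had 8.04 and 9.93 CPM and Brn3a HET cells 69.5 and 71.4 CPM (-2.97, adjusted p = 0.0425). Both Brn3b groups were therefore below both Brn3a groups, and the KO difference did not pass the test against the HET difference (adjusted p = 0.85). In Brn3b KO against Brn3b HET cells Pou4f3 differed by -0.77 ± 0.63 (adjusted p = 0.543).

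**Figure D1:**
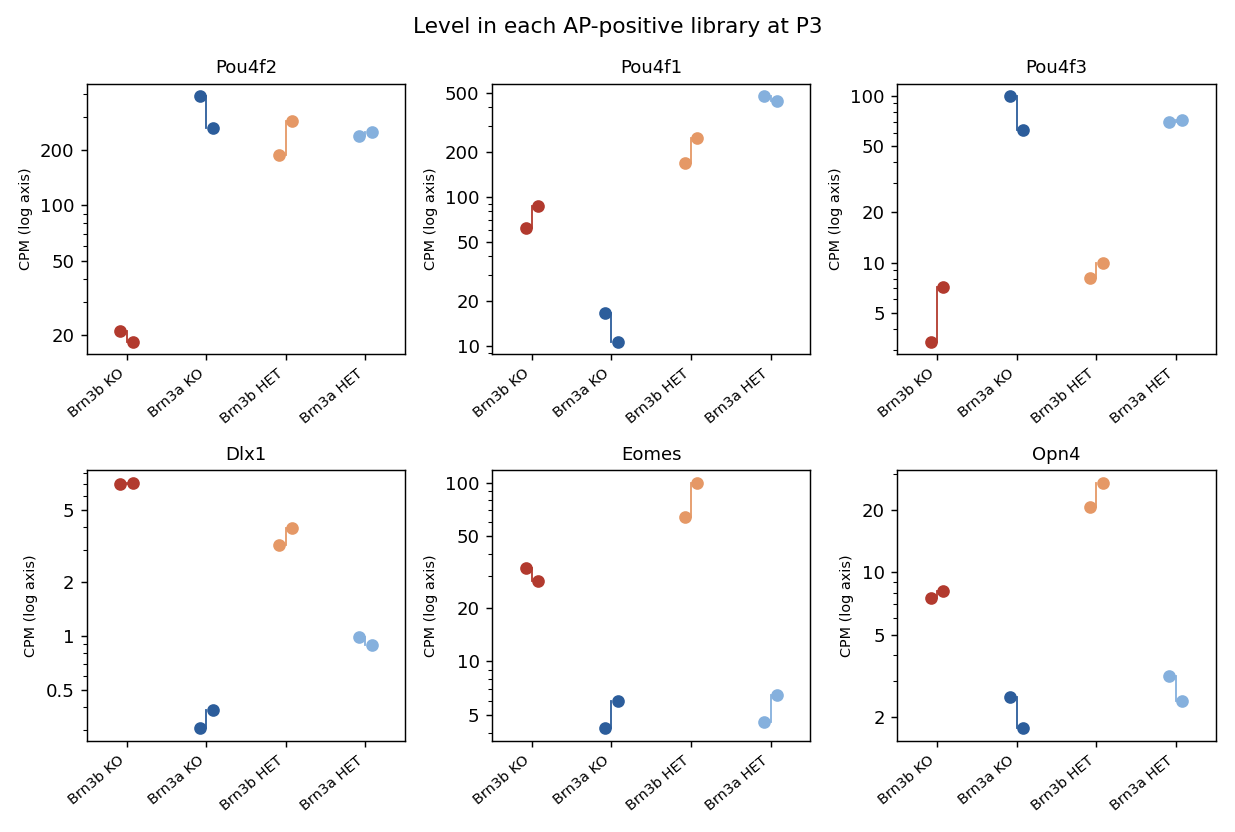
Level of 6 genes (CPM, log axes that differ between panels) in the 2 AP-positive libraries of each group at P3, 1 point per library, joined by a line. Pou4f2 is lowest in Brn3b KO, at 21.0 and 18.3 CPM, Pou4f1 is lowest in Brn3a KO, at 16.7 and 10.7 CPM, and Pou4f3, Eomes and Opn4 separate the 2 Brn3b groups from the 2 Brn3a groups.

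The KO contrast, in which each line lacks its own factor, can be set beside the same contrast in heterozygotes, where neither factor is lost. Of all genes tested, only Pou4f2 and Dlx1 passed edgeR's test of the difference between the KO contrast and the HET contrast (0.012% of genes, 0.006% higher and 0.006% lower, with 1471 genes at an unadjusted p under 0.05). For the same difference DESeq2 called 334 genes, 45 higher and 289 lower, both of these among them, and edgeR with no filter on low counts called 53. Pou4f1, targeted in the Brn3a line, did not pass edgeR's test, though its difference was 2.44 in KO and -1.13 in HET cells. Of the 3 Brn3 genes DESeq2 called 1 higher and 1 lower, and Pou4f3 was not called (adjusted p = 0.899). A gene missing from edgeR's calls is thus not shown to lack such a difference. Dlx1, a homeobox factor best known from interneurons and studied in ganglion cell development, was at 6.94 and 7.09 CPM in Brn3b KO cells, against 0.305 and 0.388 CPM in Brn3a KO cells (4.32 ± 0.19, 20.0-fold higher, adjusted p = 6.6e-06). It was at 3.20 and 3.98 CPM in Brn3b HET cells and at 0.982 and 0.884 CPM in Brn3a HET cells (1.94, adjusted p = 0.00128). The 4 groups did not overlap, with both Brn3b KO libraries above both Brn3a KO libraries, as for 35.3% of all genes. The KO difference exceeded the HET difference by 2.38 on the log2 scale for Dlx1 (adjusted p = 0.0354) and lay 4.01 below it for Pou4f2 (-4.01, adjusted p = 0.0136). Both calls were lost when only the 8 AP-positive P3 libraries were fitted (adjusted p = 0.0694 for Pou4f2 and 0.116 for Dlx1), and the Dlx1 value was 0.60 when only the highest transcript of each gene was kept. The Dlx1 call was also lost in each of the 8 fits without 1 of these libraries (2.23 to 2.56). The Pou4f2 call was lost without Brn3b KO replicate 1 (-4.09), Brn3b KO replicate 2 (-3.90), Brn3a HET replicate 1 (-3.96) or Brn3a HET replicate 2 (-4.01). Dlx1 (ENSMUSG00000041911, chr2:71528113-71533981, plus strand) overlaps the antisense gene Dlx1as in the GENCODE annotation, and whether reads were assigned by strand is unknown, so reads from both cannot be told apart.

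The promoters of these 2 genes are shown because they alone passed edgeR's test, with that of Eomes, a T-box factor described below, for comparison. The windows run from 250 bases before to 50 after the RefSeq start (GRCm38.p6), and capitals mark ATTAAT, the core of the site that Brn3 factors prefer, which reads the same on both strands. The window of Pou4f2 is chr8:78436598-78436897 (minus strand), that of Dlx1 chr2:71529195-71529494 (plus strand) and that of Eomes chr9:118477939-118478238 (plus strand).
Pou4f2: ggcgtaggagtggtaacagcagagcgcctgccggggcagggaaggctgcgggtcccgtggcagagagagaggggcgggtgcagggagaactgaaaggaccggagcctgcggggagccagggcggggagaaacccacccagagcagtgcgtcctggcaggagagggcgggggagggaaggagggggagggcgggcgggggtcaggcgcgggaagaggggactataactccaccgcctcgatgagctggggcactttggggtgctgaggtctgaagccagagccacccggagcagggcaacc
Dlx1: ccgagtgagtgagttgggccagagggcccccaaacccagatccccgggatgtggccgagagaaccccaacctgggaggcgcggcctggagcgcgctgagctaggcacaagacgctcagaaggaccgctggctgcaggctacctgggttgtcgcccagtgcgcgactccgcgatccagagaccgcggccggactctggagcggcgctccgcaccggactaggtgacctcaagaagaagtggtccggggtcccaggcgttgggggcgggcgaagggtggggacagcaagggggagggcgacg
Eomes: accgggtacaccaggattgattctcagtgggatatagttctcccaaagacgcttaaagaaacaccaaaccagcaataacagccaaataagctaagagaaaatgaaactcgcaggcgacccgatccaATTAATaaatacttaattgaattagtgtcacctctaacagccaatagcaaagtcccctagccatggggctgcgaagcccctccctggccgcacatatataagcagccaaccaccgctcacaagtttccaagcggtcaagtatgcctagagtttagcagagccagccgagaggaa
The 6 letters occur in 4.75% of all 32851 promoters in the table. Among these 3 windows only that of Eomes holds them, at position 127 counted from the 5′ end. Windows of Opn4, Ano3 and Ecel1 were also scanned, and 1 of Ano3 holds them at position 49. Of 12 promoters found for the 15 genes furthest below in the KO contrast, 1 holds them (8.33%). Of 6 promoters found for the 15 genes furthest above, 0 do. This describes letters, not binding.

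Over all genes the KO contrast was wide. In Brn3b KO against Brn3a KO cells 5994 genes were called (36% of those tested), of which 2786 were higher (16.7%) and 3208 lower (19.2%), around a median difference of 0.014. In Brn3b HET against Brn3a HET cells 642 genes were called (3.85%, 2.03% higher and 1.82% lower), and 607 of these 642 were also called in the same direction in the KO contrast, which is 94.9% of the HET calls and 10.2% of the KO calls. The HET count depended on the setting, with 3048 by DESeq2, 3173 with only the HET libraries in the fit and 31 to 84 with 1 HET library left out, so the gap between the KO and HET counts and the 10.2% share hold for this fit only. Of the 5994 genes called between the KO groups, 5839 (97.4%) had the same sign between the HET groups. The median size of the difference over all genes was 0.62 in KO and 0.41 in HET cells. The count of KO calls was 3827 with only the 4 KO libraries in the fit, and there 33.9% of the calls were higher, against 46.5% in the fit reported here. It was 3451 without Brn3b KO replicate 1, 3662 without Brn3b KO replicate 2, 2687 without Brn3a KO replicate 1 and 6099 without Brn3a KO replicate 2, the library whose labels conflict.

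**Figure D2:**
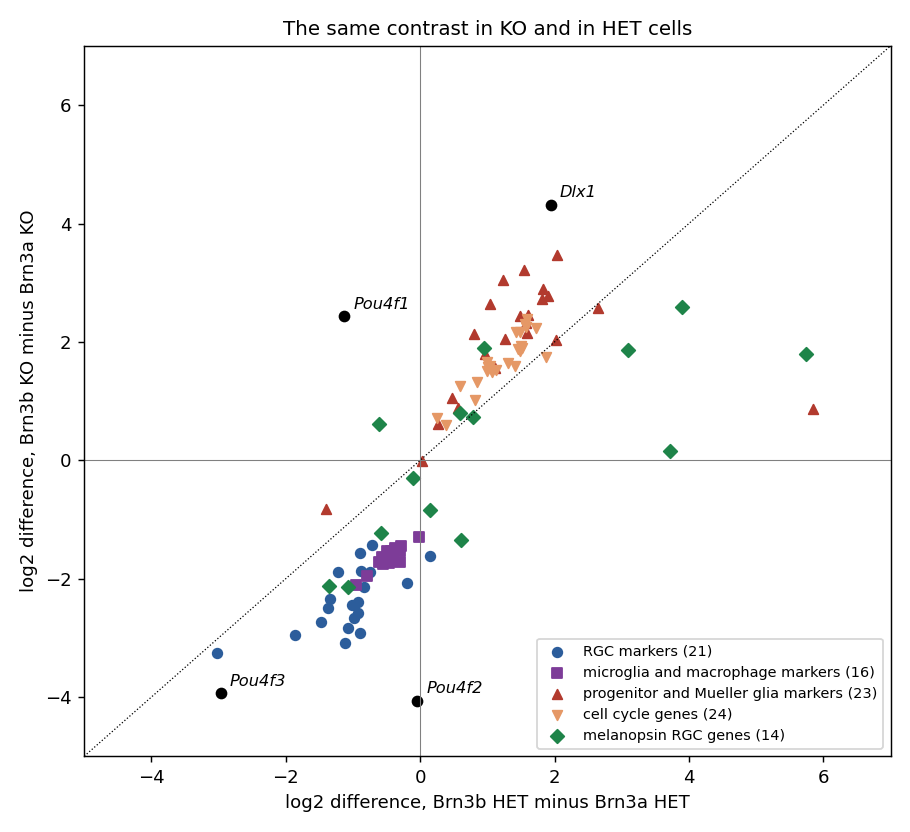
The log2 difference Brn3b KO minus Brn3a KO (vertical axis) against Brn3b HET minus Brn3a HET (horizontal axis) for the tested members of 5 lists and 4 named genes, 1 point per gene, with a dotted line where both are equal. Pou4f2 is at -0.04 in HET and -4.06 in KO, Pou4f1 is at -1.13 in HET and 2.44 in KO, and RGC markers are below 0 in KO.

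Before the gene groups, the cells in the libraries are described, since bulk values mix cell types. Of 21 markers of ganglion cells in general, all 21 were called lower in Brn3b KO cells (against 19.2% of all genes), with a median of -2.39. Their summed level was 1870 and 2190 CPM in Brn3b KO, 11600 and 8140 CPM in Brn3a KO, 4580 and 6530 CPM in Brn3b HET and 11200 and 10500 CPM in Brn3a HET libraries. The 2 Brn3b KO libraries were the lowest of the 8. Scaled over all 18 retinal libraries, their sums were 1900 and 2240 CPM, not far above the 1420 CPM of the Brn3b KO supernatant. On that scaling the Brn3a KO sums were 11600 and 8270 CPM, against 1030 CPM in the Brn3a KO supernatant. Slc17a6, the vesicular glutamate transporter of ganglion cells, was at 40.7 and 57.9 CPM in Brn3b KO, against 447 and 395 CPM in Brn3a KO cells (-3.09 ± 0.39, adjusted p = 0.000908). Rbpms, an RNA-binding protein used to count ganglion cells, was at 68.9 and 88.2 CPM in Brn3b KO and 643 and 473 CPM in Brn3a KO cells (-2.83 ± 0.41, adjusted p = 0.00143). In these bulk samples, fewer ganglion cells in the bead fraction and less RNA of these genes per cell cannot be told apart. With the progenitor and cell cycle covariate 0 of the 21 were called (median -1.47), and with the microglia covariate 0 (median -3.28). Within the Brn3b line 14 of the 21 were lower in KO than in HET cells (3.41% of all genes were called there, 3.15% lower), while within the Brn3a line 0 of 21 were called (edgeR called 3 genes there, 0.018% of all, 0.012% higher and 0.006% lower).

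Other cell types moved with the groups, where over all genes 19.2% were called lower and 16.7% higher. Microglia, the phagocytes of the retina, were represented by 16 markers, all called lower in Brn3b KO cells (median -1.66), with summed levels of 1890 and 1450 CPM in Brn3b KO, 5520 and 4550 CPM in Brn3a KO, 3020 and 3740 CPM in Brn3b HET and 4330 and 4850 CPM in Brn3a HET libraries. The 4 supernatants held 9.65 to 36.1 CPM of the same markers, so they were concentrated in the bead fraction of every group. C1qa, a complement subunit, was at 99.8 and 65.6 CPM in Brn3b KO and at 341 and 203 CPM in Brn3a KO cells (-1.72 ± 0.27, adjusted p = 0.0019). The 6 tested haemoglobin and red cell genes summed to 7.81 and 12.4 CPM in Brn3b KO and 105 and 170 CPM in Brn3a KO libraries, and 5 of the 6 were called lower, a count of 1 without Brn3b KO replicate 1 and 3 without Brn3b KO replicate 2. Hba-a1, an alpha globin that shares reads with its copies, was at 0.810 and 1.71 CPM in Brn3b KO and at 13.2 and 18.3 CPM in Brn3a KO cells (-3.64 ± 0.54, adjusted p = 0.00155).

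Markers of dividing progenitors went the other way. Between the HET groups the medians were also positive, 1.48 for progenitor and Mueller glia markers and 1.35 for cell cycle genes. Of 23 progenitor and Mueller glia markers 18 were called higher and 1 lower (median 2.15), against 16.7% and 19.2% of all genes, and the higher count was 8 without Brn3a KO replicate 1 and 11 without Brn3b KO replicate 2. Of 24 cell cycle genes 20 were called higher and 0 lower (median 1.65), and their sum was 1070 and 2680 CPM in Brn3b KO, against 541 and 554 CPM in Brn3a KO libraries. Brn3b KO replicate 2 was thus the highest of the 8, and the cell cycle count was 2 without it, 3 without Brn3a KO replicate 1 and 9 without Brn3a KO replicate 2. Top2a, the topoisomerase of dividing cells, was at 137 and 445 CPM in Brn3b KO and at 56.5 and 54.2 CPM in Brn3a KO cells (2.39 ± 0.56, adjusted p = 0.0102). It lost its call without Brn3b KO replicate 2 (1.3) and without Brn3a KO replicate 1 (2.41). Six3, a homeobox factor of progenitors that amacrine cells keep, was the member called lower, at 147 and 178 CPM in Brn3b KO and 303 and 271 CPM in Brn3a KO cells (-0.82 ± 0.14, adjusted p = 0.003).

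**Figure D3:**
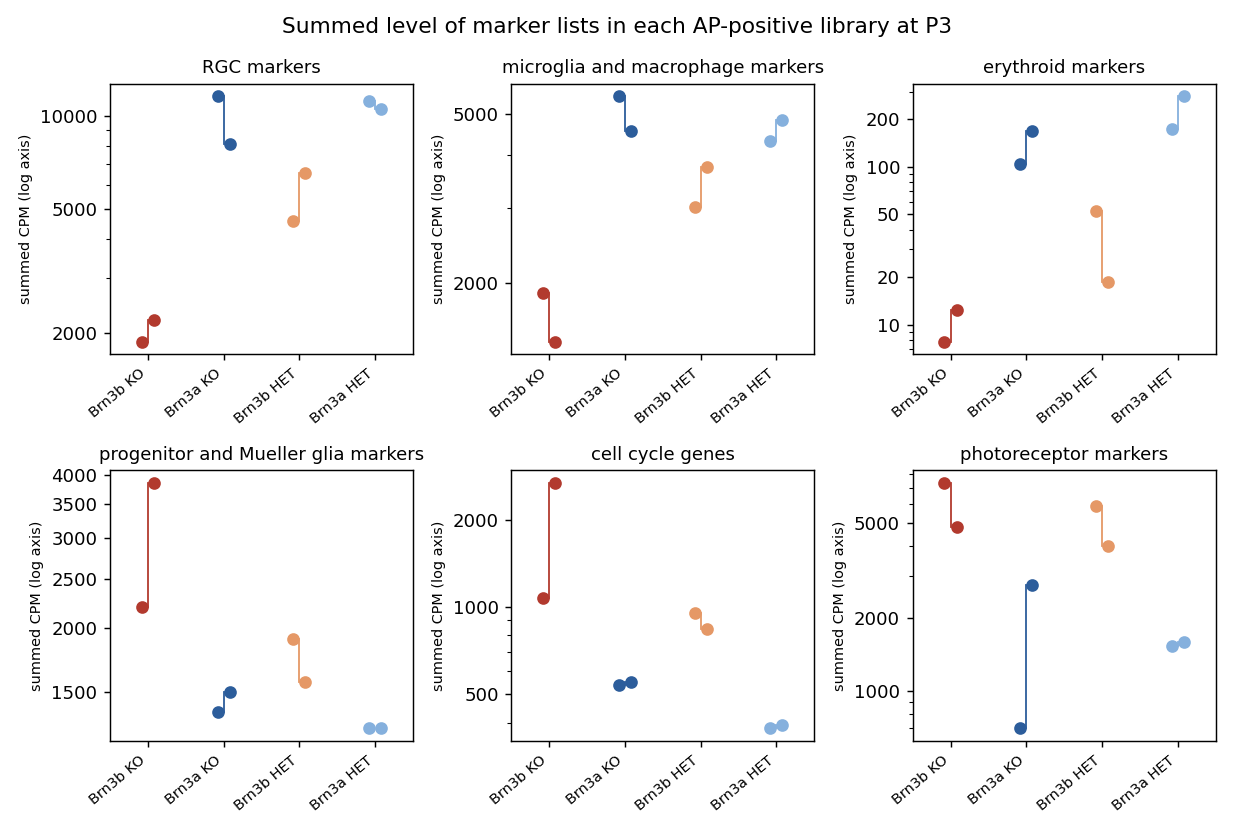
Summed level (CPM, log axes that differ between panels) of 6 marker lists in each AP-positive library at P3, 1 point per library, joined by a line within a group. RGC, microglia and erythroid sums are lowest in the 2 Brn3b KO libraries, progenitor and cell cycle sums are highest there, and photoreceptor sums spread between the 2 Brn3a KO libraries from 696 to 2760 CPM.

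Some markers of photoreceptors and horizontal cells were also higher in Brn3b KO cells. Of 18 photoreceptor markers 8 were called higher (44.4%, against 16.7% of all genes) and 0 lower (median 1.54). Between the HET groups their median was alike, at 1.6. Their sums were 7350 and 4810 CPM in Brn3b KO and 696 and 2760 CPM in Brn3a KO libraries. In the heterozygotes the sums were 5860 and 4000 CPM in Brn3b HET and 1540 and 1590 CPM in Brn3a HET libraries. Scaled over all 18 retinal libraries, the sums were 7460 and 4940 CPM in Brn3b KO, against 4570 CPM in its supernatant. They were 692 and 2810 CPM in Brn3a KO, against 4980 CPM in its supernatant. Prdm1, a repressor that sets photoreceptor against bipolar fate, was at 520 and 369 CPM in Brn3b KO and at 47.7 and 137 CPM in Brn3a KO cells (2.27 ± 0.42, adjusted p = 0.00348). The photoreceptor count was 17 without Brn3a KO replicate 2 and 3 without Brn3b KO replicate 1, and Crx, the cone-rod homeobox factor, was called with both (1.96, adjusted p = 0.0167) and not without Brn3b KO replicate 1 (1.69). Of 7 horizontal cell markers 5 were called higher (71.4%, against 16.7% of all genes), with a median of 1.58, and of 0.93 between the HET groups. Among them was Prox1 at 100 and 128 CPM in Brn3b KO and 22.7 and 53.6 CPM in Brn3a KO cells (1.58 ± 0.33, adjusted p = 0.00593). The horizontal cell count was 1 without Brn3a KO replicate 1, 2 without Brn3b KO replicate 2 and 3 without Brn3b KO replicate 1. Of 10 bipolar markers 1 was higher and 1 lower, of 14 vascular markers 1 was higher, and of 8 astrocyte markers 1 was higher. These shares are below those over all genes, 16.7% higher and 19.2% lower. With the microglia markers as a covariate 0 KO calls remained (1113 genes at an unadjusted p under 0.05), and that covariate alone raises the standard error of the contrast 3.57-fold because it nearly separates the 2 KO groups. With progenitor and cell cycle genes as the covariate 342 calls were made, and the standard error rises 1.68-fold by design.

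Amacrine cells, the inhibitory interneurons beside ganglion cells, gave calls in both directions. The share called higher was 47.8%, against 16.7% of all genes. The share called lower was 13.0%, below the 19.2% of all genes. The median over the 23 markers was 1.04 between the HET groups, against 1.02 between the KO groups. Of 23 markers 11 were called higher and 3 lower (median 1.02), against 7 higher and 2 lower without Brn3a KO replicate 1. Without Brn3b KO replicate 1 the lower count was 2 as well. Those called higher include transcription factors of amacrine precursors, such as Ptf1a (13.0 and 6.72 CPM in Brn3b KO, 0.978 and 1.85 CPM in Brn3a KO, 2.80 ± 0.51, adjusted p = 0.0034) and Tfap2b (496 and 416 CPM in Brn3b KO, 45.9 and 115 CPM in Brn3a KO, 2.50 ± 0.46, adjusted p = 0.00328). Tfap2c and Prdm13 differed by 2.75 and 2.57. Gad2, the GABA-making enzyme, differed by less, at 70.1 and 64.0 CPM in Brn3b KO and 35.5 and 46.4 CPM in Brn3a KO cells (0.71 ± 0.15, adjusted p = 0.0062), and lost its call with only the KO libraries in the fit. The members called lower include 2 transporters of other transmitters. Slc18a2, which loads monoamines into vesicles, was at 16.4 and 22.6 CPM in Brn3b KO and at 148 and 98.3 CPM in Brn3a KO cells (-2.66 ± 0.36, adjusted p = 0.0011). Slc5a7, the choline transporter, was at 1.11 and 2.13 CPM in Brn3b KO and at 14.6 and 11.8 CPM in Brn3a KO cells (-3.02 ± 0.45, adjusted p = 0.00153).

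**Figure D4:**
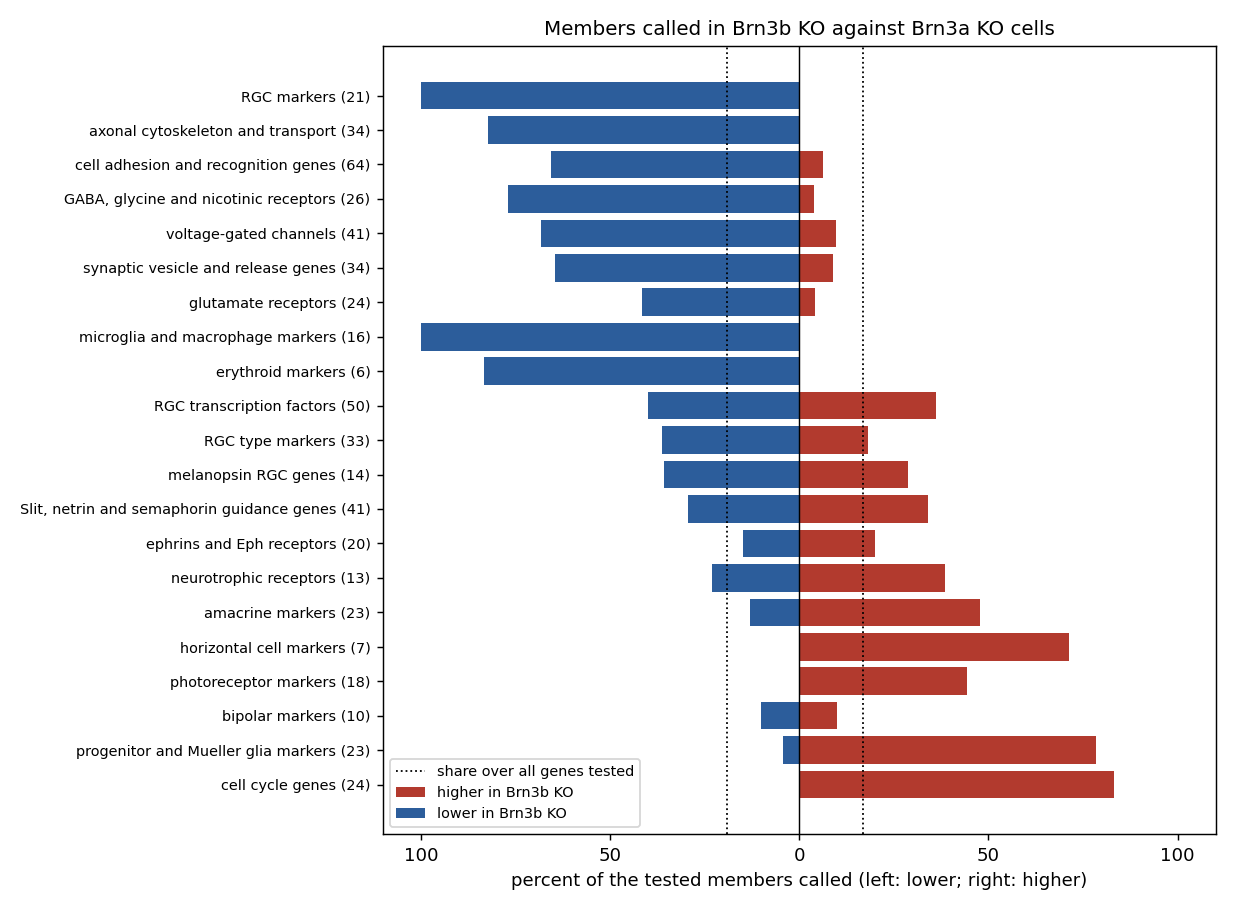
Percent of the tested members of each list called lower (left) or higher (right) in Brn3b KO against Brn3a KO cells, with the number tested in brackets and dotted lines at the share over all genes tested, 19.2% lower and 16.7% higher. RGC and microglia markers reach 100% lower, and progenitor and cell cycle lists reach 78.3% and 83.3% higher.

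Transcription factors of ganglion cells split in both directions. Of 50 tested 18 were called higher and 20 lower, with a median of -0.04, and the rest did not pass the test. These are 36.0% and 40.0%, against 16.7% and 19.2% of all genes. Without Brn3a KO replicate 1 the counts were 10 higher and 14 lower, and without Brn3b KO replicate 1 they were 14 higher and 13 lower. Of the 50, 5 also stand among the 21 ganglion cell markers. Among those lower was Isl1, the LIM factor that works with Brn3b in ganglion cell differentiation, at 31.2 and 48.2 CPM in Brn3b KO and 191 and 142 CPM in Brn3a KO cells (-2.07 ± 0.34, adjusted p = 0.00235), without a called difference between HET cells (-0.19, adjusted p = 0.737). Tbr1, a T-box factor of ganglion cells with oriented dendrites, was at 4.51 and 6.96 CPM in Brn3b KO and 21.8 and 18.3 CPM in Brn3a KO cells (-1.81 ± 0.36, adjusted p = 0.00517). Relative to the summed ganglion cell markers neither Isl1 nor Tbr1 was lower in Brn3b KO than in Brn3a KO libraries, as given with the melanopsin genes. On that scale Tbr1 was still lower in Brn3b KO than in Brn3b HET libraries. Ebf3 differed by -2.34, with a called HET difference of -1.34 (adjusted p = 0.0411), Zfhx3 by -1.87 and Irx2 by -2.48. None of these 5 passed edgeR's test of the KO difference against the HET difference (0.012% of all genes did), with adjusted p from 0.209 to 0.657. By DESeq2 Isl1 passed it (-1.84, adjusted p = 0.00847) and the other 4 did not. DESeq2 called 11 of the 50 factors, 6 higher and 5 lower, beside 334 of all 16673 genes, 45 higher and 289 lower.

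Other factors called lower also had a called difference between heterozygotes. Bnc2, a zinc finger factor, was at 1.38 and 2.15 CPM in Brn3b KO and 43.6 and 29.3 CPM in Brn3a KO cells (-4.36 ± 0.70, 20.6-fold lower, adjusted p = 0.00201), and at 1.32 and 3.83 CPM in Brn3b HET and 21.2 and 18.4 CPM in Brn3a HET cells (-2.95, adjusted p = 0.0436). Irx4, an Iroquois factor, was at 1.86 and 1.74 CPM in Brn3b KO and 13.1 and 9.57 CPM in Brn3a KO cells (-2.65 ± 0.52, adjusted p = 0.00465), with a HET difference of -2.35. Isl2, a LIM factor of ganglion cells that cross the midline, was at 5.43 and 4.98 CPM in Brn3b KO and 74.2 and 24.7 CPM in Brn3a KO cells (-3.25 ± 0.70, adjusted p = 0.00683), with a HET difference of -3.03. Its KO difference was -2.26 without Brn3a KO replicate 1 and no longer called (adjusted p = 0.0531).

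Among the factors called higher, Zic2, which steers ganglion cell axons to the same side of the brain, was at 39.3 and 39.9 CPM in Brn3b KO and 7.76 and 12.6 CPM in Brn3a KO cells (1.96 ± 0.21, adjusted p = 0.00071), with a HET difference of 1.66 (adjusted p = 0.00813). St18, a zinc finger factor, was at 48.9 and 30.9 CPM in Brn3b KO and 4.09 and 10.7 CPM in Brn3a KO cells (2.43 ± 0.48, adjusted p = 0.00461). Sox4 and Sox11, SoxC factors of newly born neurons, differed by 0.89 and 0.95, and Nr2f2, a nuclear receptor, by 1.29. Irx1 and Foxp2, named here after their values were seen, were called between HET groups and not between KO groups. Irx1 was at 0.324 and 0.649 CPM in Brn3b KO, 0.397 and 0.477 CPM in Brn3a KO, 3.85 and 4.82 CPM in Brn3b HET and 0.149 and 0.497 CPM in Brn3a HET cells. Only the 2 Brn3b HET libraries stood out for Irx1, and within the Brn3b line it was lower in KO than in HET cells (-3.14 ± 0.56, adjusted p = 0.0236). Foxp2 was at 4.65 and 12.8 CPM in Brn3b KO, 18.3 and 14 CPM in Brn3a KO, 16.5 and 24.7 CPM in Brn3b HET and 85.3 and 87.4 CPM in Brn3a HET cells. Its KO difference was -0.89 (adjusted p = 0.0985), and -1.80 and called without Brn3b KO replicate 2.

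**Figure D5:**
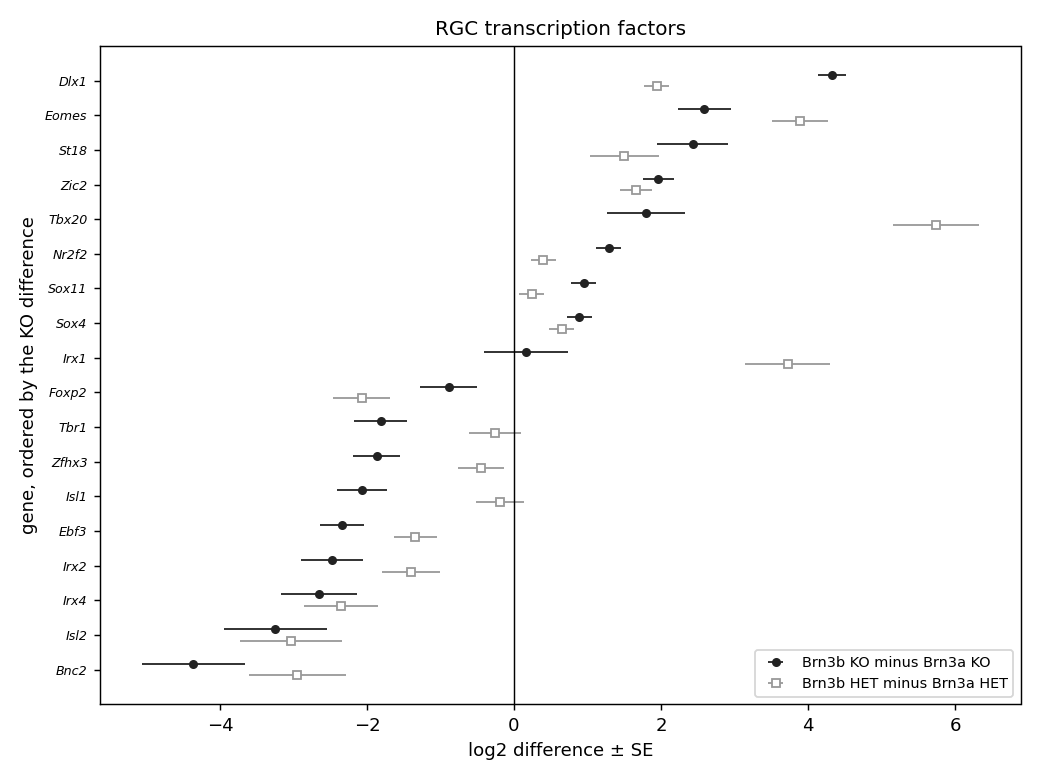
The log2 difference ± SE of the 18 ganglion cell transcription factors named in the text, out of 50 tested, Brn3b KO minus Brn3a KO (filled circles) and Brn3b HET minus Brn3a HET (open squares), ordered by the KO difference. Dlx1 is highest in KO at 4.32 and Bnc2 lowest at -4.36, while Tbx20 and Irx1 have HET differences of 5.74 and 3.72, above their KO differences of 1.80 and 0.16.

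Genes of melanopsin ganglion cells, which sense light directly and drive the clock and the pupil, were split. The shares called were 28.6% higher and 35.7% lower, against 16.7% and 19.2% of all genes. Of 14 tested 4 were called higher in Brn3b KO cells and 5 lower, with 1 higher and 3 lower without Brn3a KO replicate 1, 1 higher and 4 lower without Brn3b KO replicate 2, 2 higher and 3 lower without Brn3b KO replicate 1, and 3 lower without Brn3a KO replicate 2. Eomes, a T-box factor that these cells need, was at 33.5 and 28.3 CPM in Brn3b KO and 4.22 and 6.02 CPM in Brn3a KO cells (2.59 ± 0.36, 6.02-fold higher, adjusted p = 0.00125), and at 64.2 and 100 CPM in Brn3b HET and 4.61 and 6.46 CPM in Brn3a HET cells (3.89, adjusted p = 0.00201). Opn4, melanopsin itself, was at 7.51 and 8.12 CPM in Brn3b KO and 2.51 and 1.76 CPM in Brn3a KO cells (1.87 ± 0.60, adjusted p = 0.0356), and at 20.7 and 27.2 CPM in Brn3b HET and 3.15 and 2.40 CPM in Brn3a HET cells. Opn4 lost its KO call when any 1 of the 4 KO libraries was left out, at differences of 1.64 to 2.13. Tbx20, a T-box factor downstream of Eomes in these cells, was at 4.38 and 5.50 CPM in Brn3b KO, 0.580 and 2.24 CPM in Brn3a KO, 56.7 and 104 CPM in Brn3b HET and 1.25 and 1.74 CPM in Brn3a HET cells. Its KO difference of 1.80 (adjusted p = 0.0251) was lost without Brn3b KO replicate 1 (1.95), Brn3b KO replicate 2 (1.62) or Brn3a KO replicate 1 (1.13). Within the Brn3b line Tbx20 was lower in KO than in HET cells (-4.02 ± 0.53, adjusted p = 0.0192). Adcyap1, the peptide PACAP that melanopsin cells release, was among those lower, at 3.11 and 5.14 CPM in Brn3b KO and 19.1 and 17 CPM in Brn3a KO cells (-2.13 ± 0.30, adjusted p = 0.00123).

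Set against the ganglion cell signal of its own library, several of these genes gave another order of the groups. Per 100 CPM of the summed 21 ganglion cell markers, Eomes stood at 1.79 and 1.3 in Brn3b KO, 0.0363 and 0.0740 in Brn3a KO, 1.40 and 1.53 in Brn3b HET and 0.0412 and 0.0614 in Brn3a HET libraries. Opn4 stood at 0.401 and 0.372 in Brn3b KO, 0.0216 and 0.0216 in Brn3a KO, 0.452 and 0.416 in Brn3b HET and 0.0282 and 0.0228 in Brn3a HET libraries. On this scale the Brn3b KO and Brn3b HET libraries were close for both genes, and every Brn3b library was above every Brn3a library. Pou4f1 on the same scale stood at 3.29 and 3.97 in Brn3b KO, 0.143 and 0.131 in Brn3a KO, 3.67 and 3.81 in Brn3b HET and 4.25 and 4.17 in Brn3a HET libraries. So 3 of the 4 groups lay between 3.29 and 4.25, and only Brn3a KO stood apart. Tbx20 stood at 0.234 and 0.252 in Brn3b KO, 0.00498 and 0.0275 in Brn3a KO, 1.24 and 1.59 in Brn3b HET and 0.0112 and 0.0165 in Brn3a HET libraries. Dlx1 stood at 0.371 and 0.324 in Brn3b KO, 0.00262 and 0.00477 in Brn3a KO, 0.0699 and 0.0609 in Brn3b HET and 0.00878 and 0.00840 in Brn3a HET libraries. Isl1 stood at 1.67 and 2.21 in Brn3b KO, 1.64 and 1.75 in Brn3a KO, 1.78 and 2.37 in Brn3b HET and 1.24 and 1.25 in Brn3a HET libraries, so the lower CPM of Isl1 in Brn3b KO cells is not seen on this scale, which counts Isl1 among its 21 markers. Tbr1 stood at 0.241 and 0.319 in Brn3b KO and 0.187 and 0.225 in Brn3a KO libraries, the opposite order to its CPM. It stood at 0.529 and 0.594 in Brn3b HET and 0.328 and 0.367 in Brn3a HET libraries, so each KO group was below its own HET group. Pou4f2 stayed lowest in Brn3b KO, at 1.12 and 0.837, against 3.37 and 3.22 in Brn3a KO, 4.09 and 4.38 in Brn3b HET and 2.13 and 2.38 in Brn3a HET libraries. These ratios are a description without a test, and the markers in the denominator are themselves called in the KO contrast.

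Genes of axons and excitability were mostly lower in Brn3b KO cells. Of 34 genes of the axonal cytoskeleton and transport 28 were called lower and 0 higher (median -1.45), against 19.2% of all genes lower. Nefl, the light neurofilament, was at 229 and 325 CPM in Brn3b KO and 2030 and 1480 CPM in Brn3a KO cells (-2.67 ± 0.34, adjusted p = 0.000954), and Gap43, a growth cone protein, was at 149 and 174 CPM in Brn3b KO and 1050 and 700 CPM in Brn3a KO cells (-2.44 ± 0.32, adjusted p = 0.00102). Stmn2 differed by -2.14. Of these 34 genes 7 also stand among the 21 ganglion cell markers. With the progenitor and cell cycle covariate 0 of these 34 genes were called (median -0.94), and with the microglia covariate 0 as well (median -1.97). Of 41 voltage-gated channels 28 were lower and 4 higher (median -1.16), the higher count being 1 without Brn3b KO replicate 1 or without Brn3a KO replicate 1. The progenitor and cell cycle covariate left 2 channels lower and 2 higher, and the microglia covariate left 0. Scn2a1, a sodium channel of unmyelinated axons, was at 31.0 and 46.6 CPM in Brn3b KO and 246 and 216 CPM in Brn3a KO cells (-2.57 ± 0.32, adjusted p = 0.000926).

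Among receptor and release genes more members were called lower than higher, and over all genes 19.2% were called lower and 16.7% higher. With the progenitor and cell cycle covariate 2 GABA, glycine and nicotinic receptor genes were called lower and 1 higher. With that covariate 0 glutamate receptor genes and 0 synaptic vesicle and release genes were called. The microglia covariate left 0 calls in each of these lists. Of 26 GABA, glycine and nicotinic receptor genes 20 were lower and 1 higher (median -1.57). Chrna6, a nicotinic subunit of ganglion cells, was at 28.5 and 41.6 CPM in Brn3b KO and 259 and 204 CPM in Brn3a KO cells (-2.73 ± 0.44, adjusted p = 0.00217). Chrnb4, another nicotinic subunit, was the member called higher, at 113 and 77.8 CPM in Brn3b KO and 31.2 and 40.1 CPM in Brn3a KO cells (1.42 ± 0.19, adjusted p = 0.00118). Of 24 glutamate receptor genes 10 were lower, 1 was higher and 13 did not pass the test (median -0.88), and the lower ones include Grin2b, an NMDA receptor subunit (-2.22), and Grm5, a metabotropic receptor (-2.71). Grik2, a kainate receptor subunit, was at 33.0 and 35.9 CPM in Brn3b KO and 79.3 and 75.0 CPM in Brn3a KO cells (-1.16 ± 0.16, adjusted p = 0.00125), and at 33.6 and 34.6 CPM in Brn3b HET and 25.8 and 27.8 CPM in Brn3a HET cells. The Brn3a KO libraries were the ones that stood out, and Grik2 was 1 of the 3 genes called between Brn3a KO and Brn3a HET cells (1.53 ± 0.16, adjusted p = 0.0258). The other 2 were Pou4f1 (-5.06 ± 0.56) and a predicted gene. Of 34 synaptic vesicle and release genes 22 were lower and 3 higher (median -1.18), including Syt13 (-2.35) and Cplx1 (-2.27) among the lower. The 3 higher were 0 without Brn3b KO replicate 1 and 1 without Brn3a KO replicate 1.

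Adhesion molecules were lower as a group and guidance genes were mixed, where over all genes 19.2% were called lower and 16.7% higher. Of 64 adhesion and recognition genes 42 were lower (65.6%) and 4 higher (6.25%, median -1.43). With the progenitor and cell cycle covariate 3 were called lower and 1 higher (median -0.94), and with the microglia covariate 0 (median -1.35). Alcam, an adhesion molecule of bundled ganglion cell axons, was at 24.2 and 23 CPM in Brn3b KO and 95.5 and 83.7 CPM in Brn3a KO cells (-1.92 ± 0.15, adjusted p = 0.000271), and Cntnap5a, a contactin-associated protein, was at 7.56 and 11.7 CPM in Brn3b KO and 75.8 and 59.3 CPM in Brn3a KO cells (-2.81 ± 0.40, adjusted p = 0.00138). L1cam differed by -2.05. Tenm3, a teneurin that maps ganglion cell connections, was at 76.7 and 88.8 CPM in Brn3b KO and 318 and 212 CPM in Brn3a KO cells (-1.68 ± 0.25, adjusted p = 0.00145), with a HET difference of -0.18. Pcdh9, a protocadherin, differed by -1.38 between KO groups and by 0.50 between HET groups, where it was not called. Mdga1, a synaptic adhesion regulator, was among the 4 higher, at 53.9 and 42.9 CPM in Brn3b KO and 7.76 and 11.4 CPM in Brn3a KO cells (2.34 ± 0.34, adjusted p = 0.00136).

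Of 41 Slit, netrin and semaphorin guidance genes 14 were higher and 12 lower (median -0.13), and the lower count was 4 without Brn3a KO replicate 1 and 6 without Brn3b KO replicate 1, the higher count 7 without Brn3a KO replicate 1 and 8 without Brn3b KO replicate 2. Sema3e, a secreted semaphorin, was at 10.9 and 15.9 CPM in Brn3b KO and 108 and 80.3 CPM in Brn3a KO cells (-2.81 ± 0.42, adjusted p = 0.00154), and Ntng1, a netrin-G, was at 13.4 and 13.4 CPM in Brn3b KO and 101 and 65.7 CPM in Brn3a KO cells (-2.63 ± 0.48, adjusted p = 0.00334). Ntng2, its paralogue, ran the other way, at 164 and 105 CPM in Brn3b KO and 21.4 and 39.7 CPM in Brn3a KO cells (2.14 ± 0.35, adjusted p = 0.00229). Robo3, a Slit receptor family member, was higher as well (1.74), and Sema6a was lower (-2.15). Of 20 ephrins and Eph receptors 4 were higher and 3 lower (median 0.33), shares near those over all genes. Epha6 was at 2.40 and 4.41 CPM in Brn3b KO and 19.2 and 11.8 CPM in Brn3a KO cells (-2.18 ± 0.44, adjusted p = 0.00526), and Efna3 differed by -2.05.

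Markers of named ganglion cell types and secreted factors are given by their counts with examples. Of 33 type markers tested 12 were lower and 6 higher (median -0.89). That is 36.4% lower, against 19.2% of all genes, and 18.2% higher, near the 16.7% of all genes. Col25a1, a membrane collagen, was at 3.78 and 6.59 CPM in Brn3b KO and 64.8 and 61.5 CPM in Brn3a KO cells (-3.60 ± 0.34, adjusted p = 0.00055). Calb2, a calcium-binding protein, differed by -2.83, Serpine2 by -1.76 and Cdh6, a cadherin of direction-selective types, by -2.08. Cdh6 differed by 0.44 between HET groups and was lower in Brn3b KO than in Brn3b HET cells (-1.79 ± 0.32, adjusted p = 0.0241). Of 21 neuropeptide genes 7 were lower and 3 higher (33.3% and 14.3%). Gal, galanin, was at 1.19 and 1.22 CPM in Brn3b KO and 13.5 and 8.83 CPM in Brn3a KO cells (-3.21 ± 0.27, adjusted p = 0.000371), Nts, neurotensin, differed by -3.68 and Vgf by -2.69. The counts in this paragraph are small and moved with single libraries. Without Brn3a KO replicate 1 they were 9 lower and 3 higher for type markers, 4 and 0 for neuropeptides, 2 and 3 for neurotrophic receptors, 3 and 0 for copines, 5 and 3 for death and injury genes and 4 and 0 for immediate early genes, lower first in each case. Without Brn3b KO replicate 1, 2 type markers and 0 neuropeptides were higher, and 2 copines, 4 death and injury genes and 5 immediate early genes were lower. Without Brn3b KO replicate 2, 4 neuropeptides and 4 immediate early genes were lower. Of 13 neurotrophic receptor genes 5 were higher and 3 lower, with Ntrk2, the BDNF receptor, at 47.6 and 64.6 CPM in Brn3b KO and 278 and 178 CPM in Brn3a KO cells (-2.02 ± 0.29, adjusted p = 0.00139) and Gfra1, a GDNF receptor, differing by 1.45. Of 9 copines, calcium-dependent membrane proteins, 4 were lower and 1 higher. Of 18 cell death and axon injury genes 7 were lower and 6 higher, with Ecel1, an injury-induced peptidase, at 2.57 and 6.62 CPM in Brn3b KO and 161 and 81.1 CPM in Brn3a KO cells (-4.72 ± 0.68, 26.3-fold lower, adjusted p = 0.00141) and Pmaip1, a pro-death BH3 protein, differing by -2.08. Of 18 immediate early and stress genes 8 were lower and 2 higher, with Zfp36, an RNA-decay factor, at 96.2 and 84.0 CPM in Brn3b KO and 495 and 334 CPM in Brn3a KO cells (-2.20 ± 0.26, adjusted p = 0.000871).

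By fold alone, among called genes with at least 10 CPM in the higher group, the 15 furthest below included Ano3, Pgm5, P2rx3 and Lrat beside genes named above. Ano3, a member of the anoctamin family of membrane proteins, was at 0.837 and 1.74 CPM in Brn3b KO, 79.6 and 64.2 CPM in Brn3a KO, 2.72 and 2.99 CPM in Brn3b HET and 22.0 and 21.3 CPM in Brn3a HET cells (KO difference -5.80 ± 0.45, 55.6-fold lower, adjusted p = 0.000271). P2rx3, an ATP-gated channel, was at 1.3 and 2.67 CPM in Brn3b KO and 45.9 and 31.7 CPM in Brn3a KO cells (-4.28 ± 0.53, adjusted p = 0.000882). Lrat, a retinol-processing enzyme, was at 0.783 and 0.805 CPM in Brn3b KO, 15.7 and 11 CPM in Brn3a KO, 2.37 and 3.98 CPM in Brn3b HET and 4.02 and 4.23 CPM in Brn3a HET cells (-4.06 ± 0.49, adjusted p = 0.000872). The Brn3a KO libraries were the highest of the 8 for Ano3 and Lrat, and for Pgm5, a phosphoglucomutase-like protein, which differed by -4.41. Rhox genes, a cluster of X-linked homeobox copies that share reads, were at 0.054 to 1.14 CPM in Brn3b KO and at 5.79 to 18.7 CPM in Brn3a KO cells for Rhox5, Rhox2a, Rhox2b and Rhox2c, of which Rhox2a lost its call without Brn3b KO replicate 1 (-3.15) or Brn3a KO replicate 1 (-3.28). Hbb-bt, a beta globin, lost its call without Brn3b KO replicate 1 (-3.69).

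The genes furthest above were led by copies described below. Slc6a2, a noradrenaline transporter, was at 77.6 and 48.7 CPM in Brn3b KO and 3.05 and 9.07 CPM in Brn3a KO cells (3.38 ± 0.64, adjusted p = 0.00394). Lhx9, a LIM factor, differed by 3.08, Fgf15, a growth factor of the embryonic retina, by 3.22, Kpna2, a nuclear import factor, by 3.16 and Krt73, a keratin, by 2.89. Gli1, a target of Hedgehog signalling (3.57), Pmel, a melanosome protein (4.39), Hes5, a Notch target (3.04), Ccnd1, a cyclin (2.90), and Foxn4, a factor of amacrine and horizontal precursors (2.90), lost their calls without Brn3a KO replicate 1, at 3.36, 3.99, 2.69, 2.58 and 2.59 in that order. Hes5 also lost it without Brn3b KO replicate 2 (2.53), and Lrit3, a leucine-rich membrane protein (2.95), without Brn3b KO replicate 1 (2.49). Pmel was at 4.05 and 23.8 CPM in Brn3b KO and 0.458 and 0.865 CPM in Brn3a KO cells, so its level rests mostly on Brn3b KO replicate 2. Over all genes 16.7% were called higher and 19.2% lower. Of 6 pigment cell markers tested 5 were higher and 1 lower, and 0 were called without Brn3a KO replicate 1.

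Several of the widest differences were in genes that are near-identical copies of another gene. Ftl2, a ferritin light chain copy, was at 0 and 0.0519 CPM in Brn3b KO and 406 and 279 CPM in Brn3a KO cells. Across all retinal libraries it was at 150 to 432 CPM in the 6 Brn3a libraries, supernatants included, and at 0 to 2.35 CPM in the 6 Brn3b libraries of the same age. Ftl1, the ferritin light chain gene itself, was at 950 and 736 CPM in Brn3b KO and 493 and 441 CPM in Brn3a KO cells, and the sum of both was 950 and 736 CPM in Brn3b KO and 903 and 723 CPM in Brn3a KO cells. The summed ratio was thus 0.05 on the log2 scale, against -13.47 for Ftl2 alone. Rps2-ps10, a ribosomal protein copy, was at 230 and 312 CPM in Brn3b KO and 2.16 and 4.74 CPM in Brn3a KO cells, and its sum with Rps2 differed by 0.28. Rps13-ps1 differed by -6.49 and its sum with Rps13 by -0.20, Rpl14-ps1 by 6.65 and its sum with Rpl14 by 0.12. Rpl15-ps2 was at 13.5 and 13.1 CPM in Brn3b KO and at 0 in both Brn3a KO libraries, at least 298-fold higher against a floor of 3 counts over the group, and its sum with Rpl15 differed by 0.06. The 6 Brn3a libraries and the 6 Brn3b libraries of this age did not overlap for Ftl2, Rps2-ps10, Rps13-ps1, Rpl14-ps1 or Rpl15-ps2. The mouse line and any run of sequencing or quantification cannot be told apart here, and the value of each copy is uncertain.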

How the data were processed

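RNA of AP-positive cells and supernatants was measured by stranded mRNA sequencing, single-end at 76 bases, 1 lane per library, per the labels' protocols. The deposited values are estimated counts per Ensembl transcript (88198 transcripts), not normalized between libraries. The submitters' processing notes name eXpress 1.3.1, Trimmomatic 0.32 and Bowtie2 2.2.1, beside the build GRCm38.p3. The roles of the tools, their order and any assignment by strand are not given in the sources used here. No batch or litter is given. Libraries were grouped by title.

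Estimated counts were summed per gene (30735 genes) and rounded to whole numbers; 27 symbols that the table lists as dates were restored by ID, and 104 symbols have more than 1 gene ID. edgeR 4.0.16 (R 4.3.3) was run on the 12 AP-positive libraries (6 groups) with TMM scaling, a minimum count of 10, and its quasi-likelihood F-test (two-sided) with Benjamini-Hochberg adjustment, which leaves 6 residual degrees of freedom; every adjusted p comes from this test unless another tool is named. CPM of single libraries use the same scaling; values set beside supernatants for copies use all 18 retinal libraries. In data simulated for the KO comparison with 200 changed genes, it found 1.49% of genes changed 1.5-fold, 38.8% of those changed 2-fold and 81.8% of those changed 4-fold. Of the 16391 genes in that fit 8 unchanged ones were called. The real contrast held 5994 calls, and the adjustment depends on the share of changed genes, so these rates do not give the recovery there. Intervals of count depth are not given; depths are in the report, and a floor of 3 counts was used for a group at 0.

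The members, gene lists and tests were chosen with earlier results of these data known. Named genes are the 3 Brn3 genes, up to 15 called genes in each direction with the widest fold, at least 10 CPM in the higher group and no overlap between the groups, with predicted and unnamed genes passed over, genes called in the test of the KO against the HET difference, and called members of the lists. The widest 15 lower genes include a second gene ID with the Rhox5 symbol, not described separately. Some genes that the rule takes are not reported here. Promoters are from RefSeq (GRCm38.p6). The alternatives were DESeq2 1.42.0, other scaling, other filters, other sets of libraries, a replicate block, single libraries left out, marker covariates, the highest transcript per gene and, chosen after seeing the data, only named protein-coding genes. The embryonic day 15 AP-positive libraries entered the fit only for the estimate of the spread, and brain libraries were not used.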

Additional observations from a re-analysis of the deposited data

Results flagged for a closer look

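The difference between Brn3b and Brn3a cells was itself different in KO and in HET cells for 2 genes, by edgeR's test of that difference (0.012% of genes called). For Pou4f2 the KO difference minus the HET difference was -4.01 (adjusted p = 0.0136), with levels of 21.0 and 18.3 CPM in Brn3b KO, 392 and 262 CPM in Brn3a KO, 187 and 286 CPM in Brn3b HET and 238 and 250 CPM in Brn3a HET cells. Pou4f2 is the gene targeted in the Brn3b line, and its KO levels go with the titles of the KO libraries. Its levels do not separate the HET lines, so the value cannot check the HET labels. For Dlx1 it was 2.38 (adjusted p = 0.0354), with both Brn3b KO libraries above every other library and both Brn3a KO libraries below every other. Over the 8 fits that leave out 1 library each, the Dlx1 value ranged from 2.23 to 2.56 and its adjusted p from 0.0513 to 0.255, so it was called in none of them, and the Pou4f2 value ranged from -4.27 to -3.65, called in 4 of the 8.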

How the results depend on the processing

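The count of genes called between the KO groups stayed within 1.5 times of 5994 with DESeq2, other scaling, other filters, the 8 P3 libraries, all 18 retinal libraries, the replicate block (5962), the highest transcript of each gene and named coding genes. It was 3827 with only the KO libraries, 0 with the microglia covariate, 342 with the progenitor and cell cycle covariate, and 2687 to 6099 with 1 library left out, where the lone library of a group is assumed to vary like the others. Between the HET groups (642) it was 3048 with DESeq2, 1393 with no filter, 1091 with a mean of at least 5 CPM, 3173 with only the HET libraries, 12 and 36 with the 2 covariates, 144 with the highest transcript, 987 with named coding genes and 31 to 84 with 1 library left out. For the KO against the HET difference (2) it was 334 with DESeq2, 53 with no filter, 0 with only the compared groups or the 8 P3 libraries, 1 with the replicate block, 0 and 1 with the 2 covariates, 1 with the highest transcript and 0 to 2 with 1 library left out. The cause of these shifts was not tested, except that the microglia covariate nearly separates the KO groups.

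Of 101 genes named in the text, 101 kept direction and call with DESeq2, with both other scalings, with no filter and with all 18 retinal libraries. The highest transcript ended the calls of 5 (Gfra1, Lhx9, Crx, Hba-a1 and Kpna2), and a fit of only the KO libraries those of 3 (Tbx20, Gad2 and Crx). Calls ended with the direction kept for 95 with the microglia covariate and 76 with the progenitor and cell cycle covariate. Calls also ended for Sox4, C1qa, P2ry12 and Zfp36 with the first covariate and Top2a with the second, which turned direction. They ended for 10 without Brn3a KO replicate 1, 1 without Brn3a KO replicate 2, 6 without Brn3b KO replicate 1 and 4 without Brn3b KO replicate 2. Directions turned in 7 cases. Irx1, uncalled, ranged from -0.43 to 0.56 with 1 KO library left out, the lowest without Brn3b KO replicate 2, and was at -0.98 with the microglia covariate, where Sox4 was at -0.13, C1qa at 0.58, P2ry12 at 0.41 and Zfp36 at 0.14. Top2a was at -0.06 with the progenitor and cell cycle covariate. Replicate numbers do not pair the samples: same-numbered KO libraries deviated with r = -0.069 and HET libraries with r = 0.0141 across genes, and the block ended the call of Rhox2a (-3.95) and the Dlx1 difference between KO and HET contrasts (adjusted p = 0.0789). Depth is alike in all 8 libraries.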

Other observations

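Ddx3y, a gene of the Y chromosome, was detected in all 4 KO libraries, at 93.0 and 75.2 CPM in Brn3b KO and 55.4 and 81.4 CPM in Brn3a KO cells. Among the heterozygotes 1 library of each line was at 0 CPM, and the others had 31.2 CPM (Brn3b HET) and 111 CPM (Brn3a HET).

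Genes below 0.1 CPM in both libraries of a KO group and at 2 CPM or more in both of the other were mostly predicted genes and pseudogenes. There were 14 such genes near 0 in Brn3b KO cells, 12 of them predicted, pseudogenes or Ftl2, and 14 near 0 in Brn3a KO cells, all 14 of them predicted or pseudogenes. In the 8 other P3 libraries, which the choice did not use, the 2 lines did not overlap for 6 of the first 14 and 10 of the second 14. The share of all genes without such overlap was not computed, nor was the share of predicted genes and pseudogenes. How unusual these counts are is therefore unknown.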
